A study of Medicago sativa with 24 samples.

Results

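The 50 genes described here had a lower transcription signal on every array of the 4x hybrids than on any array of the 2x hybrids of one alfalfa family. They were taken from 41527 genes by a rule on the measured log2 intensities. All 9 arrays of the 4x hybrids had to lie below all 9 arrays of the 2x hybrids, the means of both groups had to differ by more than 1 on the log2 scale, and the means of both parents by at most 2. The rule was met by 52 genes, 0.125% of those on the array, and 2 of them were left out because the study had singled them out by name. Genes annotated as retroelements or as resistance genes were also to be left out, but this removed no further gene. The difference between the 2x and 4x hybrids thus chose these genes, and it is given below as a description, without a test.

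All plants belong to Medicago sativa and to 1 cross between diploids. PG-F9, the seed parent, is a plant of subsp. falcata that forms 2n eggs, and 12P, the pollen parent, was selected for 2n pollen from a coerulea by falcata cross. Their full-sib progeny comprised 3 diploids (S8-2x, S16-2x, S24-2x; 2x hybrids) from normal gametes and 3 tetraploids (S29-4x, S48-4x, S60-4x; 4x hybrids) from the fusion of a 2n egg with 2n pollen. No treatment was applied, and young leaves were taken at the vegetative stage from plants in a screen house. Each hybrid name stands for 1 plant propagated by cuttings, and each of the 3 replicates per genotype was a bulk of leaves from 2 such cuttings. The arrays of 1 ploidy level are therefore repeats of only 3 genotypes, and the 24 arrays comprise 6 of the parents, 9 of the 2x hybrids and 9 of the 4x hybrids. The probes were designed on sequences of Medicago truncatula, up to 3 for a gene, so that a base difference under a probe also enters the signal.

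A 2n gamete carries the unreduced chromosome set of its parent, and its fusion with another such gamete raises the ploidy of the progeny within a single generation. A microarray loaded with equal amounts of total RNA reports each transcript as a share of the RNA, not as copies per cell. Barring base differences under its probes, a gene lower in a 4x leaf on this scale takes a smaller share of the transcripts there. This holds whatever the amount of RNA per cell. In bulk leaves, fewer cells of a type and less RNA per cell cannot be told apart. The annotated genes among the 50 come from many processes, and their classes include DNA-binding proteins, detoxification enzymes, enzymes of the legume flavonoid pathway, and proteins of cell wall, sugar and lipid metabolism.

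Array medians ranged from 498.7 to 527.3 in intensity. The highest negative control was exceeded by 66.0% to 79.1% of the genes, depending on the array. Replicates of a genotype correlated at 0.985 to 0.995 on average. Of 8 leaf marker genes (chlorophyll a/b binding proteins, PsaD and a Rubisco small subunit), 6 had mean levels between the 82.6 and 92.1 percentiles of all genes and 2 between the 28.5 and 33.8 percentiles. The study had singled out these 8 genes on the same arrays as higher in the 4x than in the 2x hybrids, so their 4x minus 2x differences of 1.06 to 2.17 on the log2 scale were fixed by that choice and are no independent measure of leaf content. The log2 of their summed intensity was 14.31 to 15.23 on the 2x arrays, 15.75 to 16.64 on the 4x arrays and 14.74 to 16.41 on the parental arrays. Their part in the results below was not tested.

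Across the 50 genes, the mean of the 2x hybrids exceeded that of the 4x hybrids by 1.0014 to 2.01 on the log2 scale, with a median of 1.18, or by folds of up to 4.03 with a median of 2.26. The lowest 2x array lay above the highest 4x array by 0.0011 to 0.72, with a median gap of 0.23. Their mean log2 intensities over all arrays ran from 5.72 to 12.70, with a median of 8.96 beside 8.98 for all genes. The mean of the highest negative control was 6.32, and the 4x mean of 8 of the 50 genes lay below it, as did the 2x mean of 1. A total of 37 genes exceeded the highest negative control on every 4x array and 46 did so on every 2x array. For TC191820, NP7271604 and TC192375 no 4x array exceeded it, and the size of their difference is limited by the background.

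**Figure D1:**
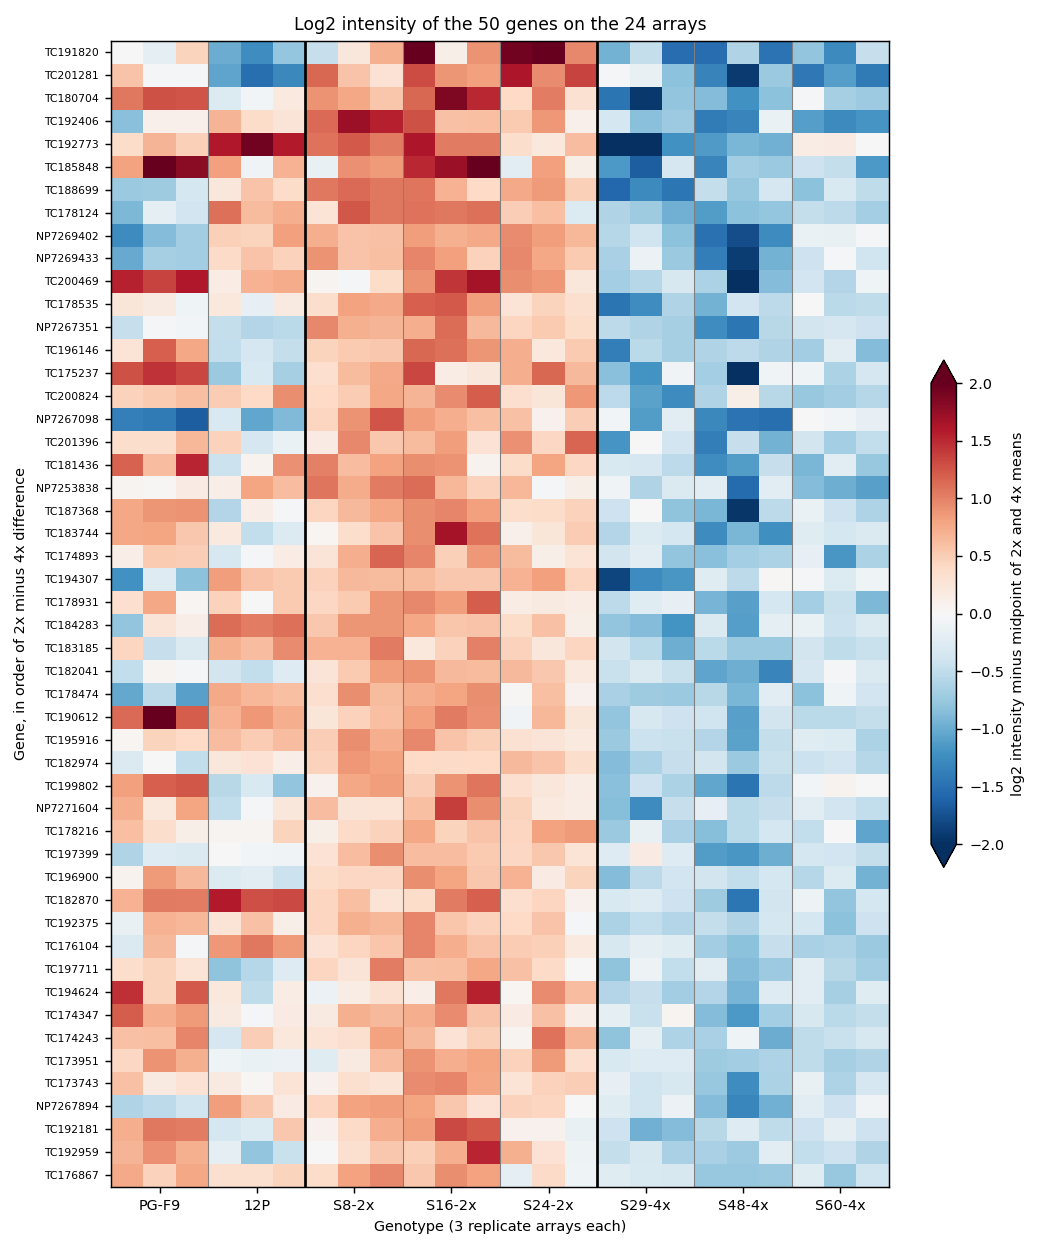
Log2 intensity of the 50 genes (rows, in order of the 2x minus 4x difference) on the 24 arrays (columns, 3 per genotype), as the deviation from the midpoint of the 2x and 4x means, with colours saturated at 2 on either side. The 9 columns of the 2x hybrids lie above the 9 columns of the 4x hybrids in every row, as the rule requires, while the 6 parental columns vary from gene to gene.

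Every one of the 50 genes has an entry in the study's supplementary annotation of 1019 differentially expressed genes. The identifiers consist of 43 tentative consensus sequences (TC) and 7 predicted coding sequences of M. truncatula (NP), and none matched the reference table available here. For 21 genes the annotation names a function. The other 29 comprise 15 genes whose best match is an unnamed protein of a grape genome scaffold, 4 with no annotation text, 3 hypothetical proteins and 7 with a match whose name gives no function.

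The gene with the largest difference, TC191820, had a grape scaffold protein as its best match. Its log2 intensity in the 2x hybrids had a lowest value of 5.96, a median of 7.32 and a highest value of 9.04, and in the 4x hybrids 4.90, 5.47 and 5.96. The lowest 2x array, from S8-2x, and the highest 4x array, from S60-4x, were almost level, and the 4.03-fold difference was carried mainly by S16-2x and S24-2x, with means of 7.44 and 8.26 against 6.58 in S8-2x. The 6 parental arrays ranged from 5.18 to 6.87, below the highest negative control on each array. TC185848, whose match lies on another grape scaffold, had a 3.39-fold difference, with 2x values of 7.71 to 10.30 and 4x values of 6.30 to 7.61. Its parental means of 9.64 in PG-F9 and 8.42 in 12P were both within the 2x range.

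TC201281 encodes a protein similar to a potato protein with EF-hands, the helix-loop-helix motif that binds calcium. Its 2x arrays had a lowest, median and highest log2 intensity of 7.37, 8.03 and 8.71, and its 4x arrays 5.17, 5.98 and 7.04. The 2x hybrids had a mean of 8.08 ± 0.41 (SD, n = 9 arrays), against 6.09 ± 0.62 (SD, n = 9 arrays) for the 4x hybrids, a 3.97-fold difference. Only 4 of the 9 4x arrays exceeded the background. S29-4x, with a mean of 6.75, was the highest 4x genotype, beside 5.76 in S48-4x and in S60-4x. The parents differed from each other, with means of 7.26 in PG-F9 and 5.80 in 12P.

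Genes for DNA-binding proteins were represented by 3 of the 50. TC180704 and NP7271604 are annotated as helix-loop-helix DNA-binding proteins, a large class of plant transcription factors, and TC187368 is similar to GHMYB9, a MYB transcription factor of cotton. For TC180704 the 2x arrays ran from 9.12 to 10.68 with a median of 9.71, and the 4x arrays from 6.89 to 8.79 with a median of 7.998, a 3.69-fold difference of the means. All 3 arrays of PG-F9, at 9.88, 10.09 and 10.08, lay within the range of the 2x hybrids, whereas those of 12P, at 8.55, 8.77 and 9.01, lay between the means of the hybrid groups. For TC187368 the 2x arrays ran from 8.42 to 9.03 with a median of 8.71 and the 4x arrays from 6.12 to 8.05 with a median of 7.54. The lowest value belonged to S48-4x replicate 2, and the other 8 arrays of the 4x hybrids lay at 7.15 or above. NP7271604 had medians of 6.411 and 5.503, and no 4x or parental array of it exceeded the background.

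Glutathione S-transferases, which conjugate glutathione to reactive or foreign compounds, contributed TC200469 (similar to GST 7 of soybean) and TC176867 (similar to another soybean GST). TC200469 had 2x values of 7.20 to 8.91 with a median of 8.10 and 4x values of 4.97 to 7.15 with a median of 6.65, a 2.67-fold difference. Its lowest 4x value again came from S48-4x replicate 2, and 7 of the 9 4x arrays exceeded the background. TC176867 had 2x values of 10.52 to 11.67 and 4x values of 9.95 to 10.47. At a difference of 1.0014 it was the gene nearest to the threshold of the rule. TC183185, also of the redox and detoxification class, is similar to a probable mannitol dehydrogenase, a family that oxidizes sugar and aromatic alcohols, and had medians of 7.13 in the 2x and 6.12 in the 4x hybrids. Only 5 of its 9 4x arrays exceeded the background.

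The flavonoid pathway leads from chalcone synthase to the isoflavonoids that legumes use in defence and in signalling to rhizobia. NP7267351, annotated as the C-terminal part of a chalcone or stilbene synthase, had 2x values of 9.81 to 10.56 with a median of 10.11, and 4x values of 7.99 to 9.09 with a median of 8.88. The groups were separated by 0.71, with means of 10.12 ± 0.24 (SD, n = 9 arrays) for the 2x and 8.75 ± 0.39 (SD, n = 9 arrays) for the 4x level. Both parents lay near the 4x hybrids, at means of 9.25 in PG-F9 and 8.90 in 12P. TC173743, annotated as an isoflavanone O-methyltransferase, an enzyme type that methylates isoflavonoid precursors of phytoalexins, had 2x values of 10.84 to 11.74 and 4x values of 9.51 to 10.61. Its parental means of 11.10 and 10.91 were instead close to those of the 2x hybrids.

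**Figure D2:**
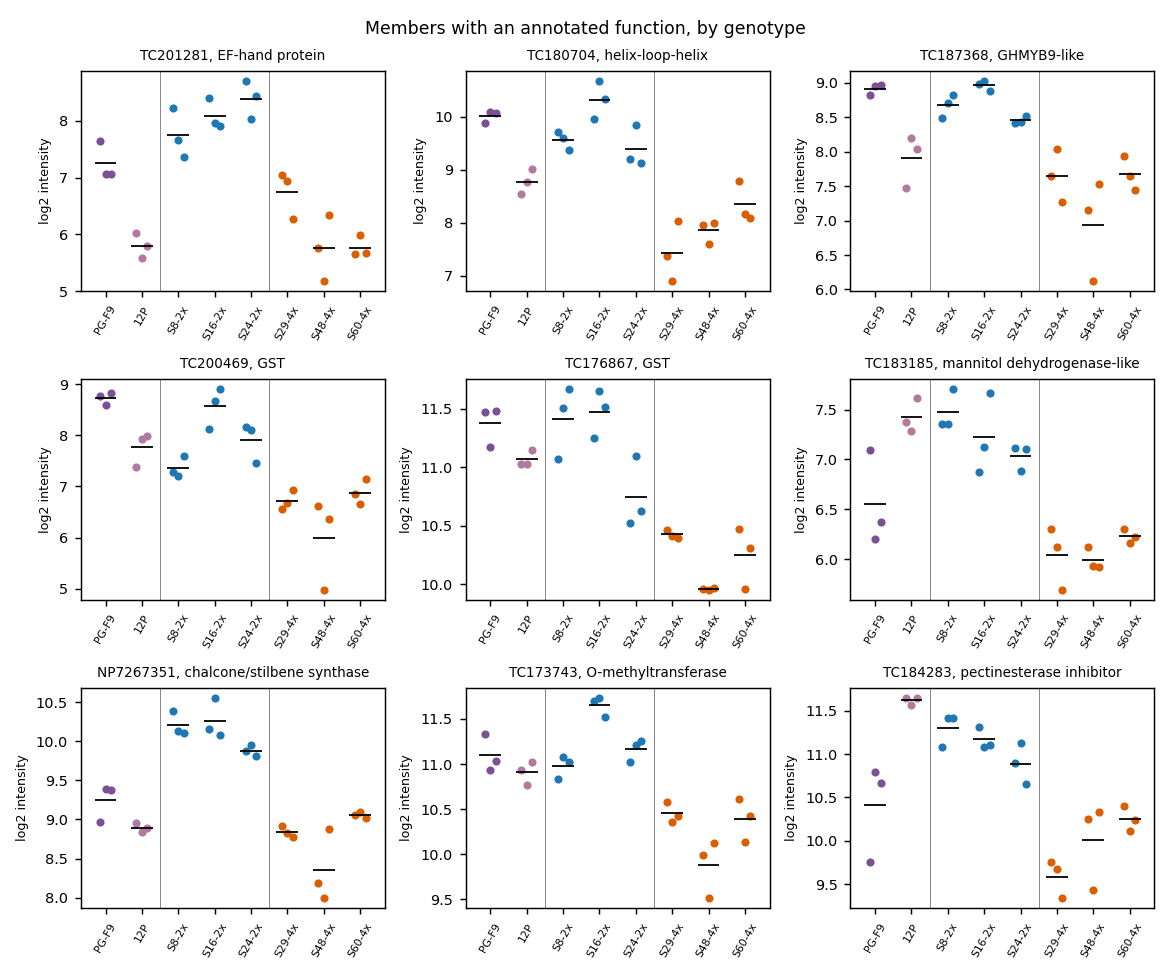
Log2 intensity (vertical axes, each with its own range) of 9 of the genes with an annotated function in the 8 genotypes, with 1 point per array and a line at the mean of the 3 arrays. In each panel the 9 points of the 2x hybrids lie above the 9 points of the 4x hybrids, and the panels differ in the position of the parents, near the 4x hybrids for NP7267351 and near the 2x hybrids for TC173743.

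Other annotated genes touched RNA polymerase, transport, cell wall and primary metabolism. TC194307, similar to a DNA-directed RNA polymerase, had the narrowest 2x group of all 50, at 12.60 ± 0.12 (SD, n = 9 arrays), with values of 12.44 to 12.82. Its 4x arrays spread from 10.16 to 12.02, with a mean of 10.58 in S29-4x and of 11.76 and 11.87 in S48-4x and S60-4x. TC178931, similar to an adenosine nucleotide translocator, a carrier of adenine nucleotides across membranes, had medians of 8.52 in the 2x and 7.48 in the 4x hybrids. TC184283 encodes a pectinesterase inhibitor, which restrains the demethylation of cell wall pectin, and had medians of 11.11 and 10.11. TC174893, similar to a triacylglycerol lipase, had medians of 8.10 and 6.84. TC192375, a sucrose synthase of alfalfa, an enzyme that splits sucrose for cell wall and starch synthesis, had a 2x mean of 6.15 and a 4x mean of 5.10, both below the mean of the highest negative control, so its level was not resolved from background.

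TC188699 carries both an ANTH domain, known from proteins of clathrin-mediated vesicle traffic, and a carbamoyl-phosphate synthase signature in its annotation. Its 2x values of 9.002 to 9.73 and 4x values of 7.04 to 8.31 were separated by 0.69, a wide gap for these genes. TC190612 is annotated with an oligopeptide transporter domain and an aspartic peptidase active site. TC197711, with a chitin-binding domain of the kind found in defence lectins and chitinases, had 2x values of 8.67 to 9.69 and 4x values of 7.79 to 8.57. TC173951, with a UBA-like domain of the type that binds ubiquitin, had 2x values of 10.16 to 11.29 and 4x values of 9.69 to 10.14. TC192959, a family 1 glycosylhydrolase, a family that includes beta-glucosidases, had 4x values of 5.87 to 6.38, of which only 3 arrays exceeded the background.

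Set against the whole annotation list, these functions did not stand apart as a single class. The list was chosen by the study on the same samples, and its classes were formed here by words in the annotations. Among all 41527 genes, 0.648% were called with a higher mean for the 2x level and 0.824% for the 4x level (limma, adjusted p under 0.05 and a difference over 1), and these include 244 and 315 genes of the list. In secondary metabolism, 12 of 23 listed genes were called in favour of the 2x hybrids and 5 in favour of the 4x hybrids, and 2 of the 12 are among the 50. In redox and detoxification the counts were 24 and 11 of 56, with 3 among the 50, and in transcription and DNA binding 14 and 15 of 43, with 3 among the 50. In RNA and translation they were 6 and 11 of 31, with 3 among the 50, and in cell wall 5 and 13 of 34, with 1 among the 50. Genes of photosynthesis (9 of 10 higher in the 4x, 0 in the 2x hybrids), of heat shock proteins and chaperones (4 and 0 of 9) and of signalling (10 and 7 of 25) contributed none of the 50. Of 24 listed genes of lipid metabolism, 18 were called in favour of the 4x hybrids and 3 in favour of the 2x hybrids, and TC174893 is 1 of the 3.

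Of the 50 genes, 8 shared a best match or a clone with another of them and fell into 3 such groups. Whether their probes share sequence was not tested, so these genes may not be separate measurements. TC192406, TC178124 and TC178474 all match the same Arabidopsis protein, At4g16765 (UniRef entry A1A6I8). For TC192406 the 2x arrays ran from 9.73 to 11.33 with a median of 10.49 and the 4x arrays from 8.22 to 9.50 with a median of 8.52, a 3.61-fold difference. TC178124 had medians of 9.46 and 7.70, and TC178474 of 7.80 and 6.53. The means of PG-F9 were below those of 12P in all 3, by 0.65, 1.31 and 1.55.

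TC199741, which has the same match, was not selected. Its group means also differed by 1.10, but its lowest 2x array lay 0.90 below its highest 4x array. After subtraction of the mean of each level, the correlation over the 24 arrays was 0.84 between TC178124 and TC178474, 0.60 and 0.49 for these with TC192406, and 0.20 to 0.32 for TC199741 with the others. The arrays share genotypes and normalization, and the correlations describe these arrays only.

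The 3 listed genes that match grape entry A7PU89, TC181436, TC178216 and TC174243, are all among the 50. Their median log2 intensities were 7.28, 6.73 and 7.60 in the 2x and 5.96, 5.73 and 6.61 in the 4x hybrids, and TC181436 and TC178216 exceeded the background on only 3 and 2 of the 9 4x arrays. Their correlations after subtraction of level means were 0.30 to 0.37. NP7269402 and NP7269433 are pentatricopeptide repeat genes, a plant family whose proteins bind RNA in chloroplasts and mitochondria, and both were predicted on 1 clone of the M. truncatula genome, AC158497. NP7269402 had 2x values of 10.61 to 10.99 with a median of 10.77 and 4x values of 8.26 to 10.004 with a median of 9.48. NP7269433 had 2x values of 9.55 to 10.07 with a median of 9.87 and 4x values of 7.20 to 9.06 with a median of 8.45.

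Both repeat genes followed the same course over the genotypes, with a correlation of 0.97 over the 24 arrays and of 0.94 after subtraction of level means. PG-F9 was low, with means of 9.10 and 8.31, 12P was near the 2x hybrids, with 10.62 and 9.57, and S48-4x was the lowest hybrid, with 8.53 and 7.69. Genes predicted on the same clone were not always selected together. NP7267098 and NP7267894 each lie on a clone with other listed genes (AC119413 and AC139707) that were not selected. The other listed genes on AC119413 had 2x minus 4x differences of -0.78 and 0.29, and the one on AC139707 had 0.79, in the same direction as NP7267894.

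**Figure D3:**
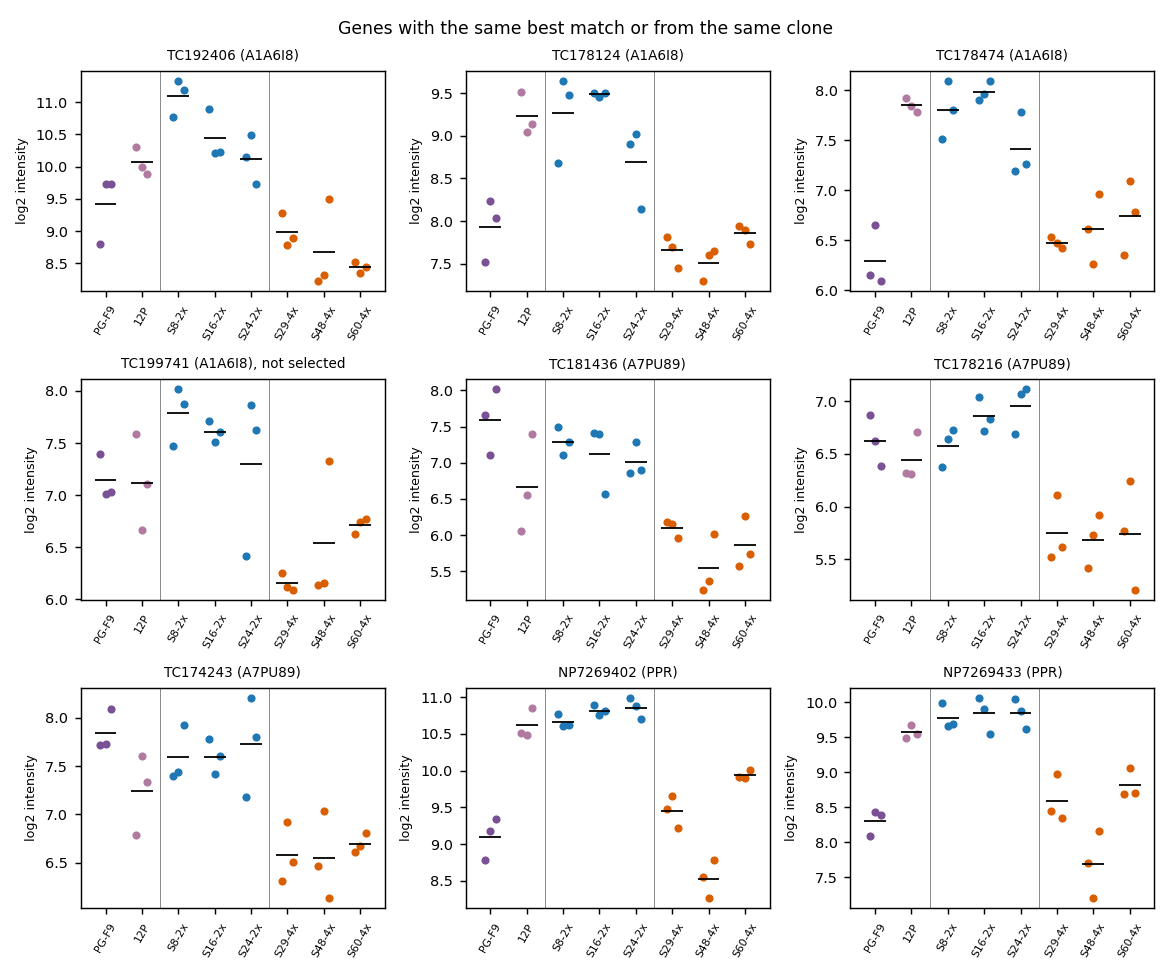
Log2 intensity (vertical axes, each with its own range) in the 8 genotypes for the 4 listed genes that match A1A6I8, the 3 that match A7PU89 and the 2 pentatricopeptide repeat (PPR) genes of clone AC158497, with 1 point per array and a line at the mean of 3 arrays. TC199741, which was not selected, has 2x and 4x points that overlap, and both repeat genes have their lowest 4x points in S48-4x.

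Where the parents lay relative to the hybrids was not fixed by the rule, apart from the limit on their difference. The parental mean lay between both hybrid means and nearer the 2x mean for 30 of the 50 genes (60%), between them and nearer the 4x mean for 12 (24%), above the 2x mean for 7 (14%) and below the 4x mean for 1 (2%). Among all genes, for which the 2x mean need not exceed the 4x mean, the shares were 10.3%, 7.36%, 51.1% and 31.3%. Where the 4x mean was the higher, a parental mean between both was counted as above the 2x mean. The shares of all genes are therefore not comparable with those of the 50. Both parental means exceeded the 4x mean in 42 of the 50 genes (84%; 30.1% of all genes). All 6 parental arrays lay above all 4x arrays in 14 genes (28%; 1.83% of all genes) and below all 2x arrays in 6 (12%; 0.226% of all genes). Since the rule kept genes that were high in the 2x and low in the 4x hybrids, such counts lean to these directions by construction.

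**Figure D4:**
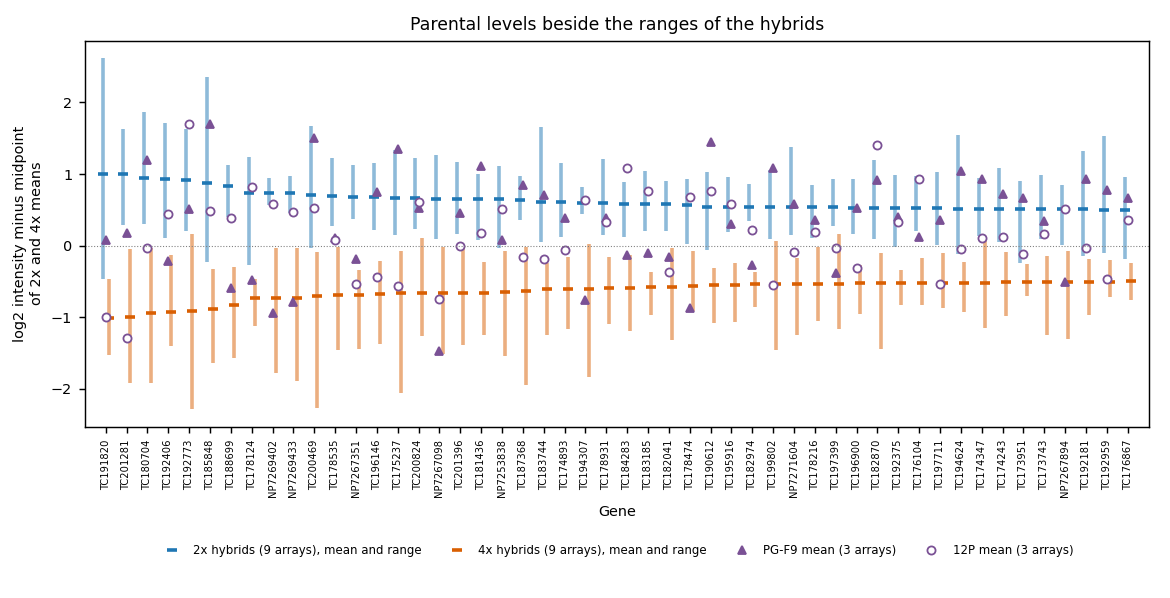
Log2 intensity minus the midpoint of the 2x and 4x means (vertical axis) for the 50 genes in order of their difference (horizontal axis), with the mean (dash) and range (bar) of the 9 arrays of each hybrid group and the mean of each parent (triangle and circle). Most parental means lie between the hybrid means or near the 2x mean. NP7267098 is the single gene for which the means of both parents lie below the 4x mean, and in some other genes the mean of only 1 parent does.

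Comparing the parents with either hybrid group uses arrays that chose the genes, so these comparisons are given as counts only. Against the 4x hybrids, 14 of the 50 genes were called, all higher in the parents, where 1.36% of all genes were called and 0.597% were called higher in the parents. Against the 2x hybrids, 3 were called, all lower in the parents (TC201281, NP7267351 and NP7267098), where 0.183% of all genes were called and 0.0554% were called higher in the 2x hybrids. With the genotype as a random block limma called 6 of the 50 against the 4x and 0 against the 2x hybrids, with 37 and 15 at an unadjusted p under 0.05 (14.1% and 3.82% of all genes), and with genotype means as observations 0 in both, with 29 and 8 (10.1% and 2.26% of all genes). The parents minus the 4x hybrids had a median log2 difference of 0.87, and the parents minus the 2x hybrids one of -0.33, beside 0.02 and 0.01 over all genes.

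The difference between the parents and the mean of both hybrid groups gives the 2x and 4x means equal weight. A 2x minus 4x difference placed evenly around the parents thus cancels, though the arrays are those that chose the genes. Where the parents lie at the level of 1 hybrid group, part of the difference required by the rule enters the comparison. The comparison tests whether the parents departed from the midpoint of the hybrids, not whether they departed from both hybrid groups. It was called for 5 of the 50 genes (10%), 4 of them higher in the parents, whereas 0.433% of all genes were called and 0.238% were called higher in the parents. The rule bears on the spread that enters this test, through the absence of overlap between the hybrid groups and the limit on the parental difference, so these shares are not on an equal footing. The median SD of the 50 genes was 0.33 in the 2x hybrids, 0.39 in the 4x hybrids and 0.54 in the parents, beside 0.29, 0.26 and 0.31 for all genes. The median log2 difference of the 50 genes was 0.26, beside 0.01 for all genes, and 37 of the 50 had a higher mean in the parents. With the genotype as a random block limma called 0 of the 50 and 20 of all genes, with 12 of the 50 at an unadjusted p under 0.05 (7.81% of all genes). With genotype means as observations it called 0 of all genes, with 10 of the 50 at an unadjusted p under 0.05 (5.37% of all genes). These calls thus rest on arrays as observations, 2 parental genotypes against 6 hybrids.

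TC182870, a gene with no annotation text, had the smallest adjusted p. Its 6 parental arrays were at 9.15, 9.50 and 9.47 in PG-F9 and 10.04, 9.75 and 9.78 in 12P, while the 2x arrays had a lowest, median and highest value of 8.55, 8.88 and 9.65, and the 4x arrays 7.01, 8.09 and 8.35. The parental range overlapped only the upper end of the 2x range and lay above all 4x arrays. The parents exceeded the mean of both hybrid groups by 1.16 (SE 0.17, limma adjusted p = 0.000512). Adjusted p was 0.0655 with the genotype as a random block.

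TC190612, the gene with an oligopeptide transporter domain, likewise had a higher mean in the parents than in either hybrid group. Its arrays of 12P lay within the 2x range, and the mean of 12P (8.27) was below that of S16-2x (8.43). PG-F9 had 8.63, 9.52 and 8.72 and 12P had 8.20, 8.37 and 8.23, the 2x arrays ran from 7.45 to 8.54 with a median of 8.11, and the 4x arrays from 6.43 to 7.19 with a median of 7.03. Its 4x genotypes were close together, with means of 7.001, 6.894 and 6.991. The log2 difference between the parents and the mean of both hybrid groups was 1.10 (SE 0.16, limma adjusted p = 0.00066), and 0.76 without PG-F9.

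TC192773, again without annotation text, and TC200469, the glutathione S-transferase, were called with less margin. For TC192773 the arrays of 12P, at 11.10, 11.43 and 11.08, were the high ones, and those of PG-F9, at 9.87, 10.18 and 9.98, lay within the 2x range of 9.71 to 11.12. Its difference was 1.11 (SE 0.31, limma adjusted p = 0.0487) and 0.51 without 12P (limma adjusted p = 0.418). Its parental mean exceeded the 2x mean by 0.19 and the 4x mean by 2.02. For TC200469 the arrays of PG-F9, at 8.78, 8.59 and 8.83, were higher than those of 12P, at 7.38, 7.94 and 7.98. Its difference was 1.01 (SE 0.27, limma adjusted p = 0.0376), and 0.53 without PG-F9 (limma adjusted p = 0.358). Its parental mean exceeded the 2x mean by 0.30 and the 4x mean by 1.72.

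NP7267098, a hypothetical protein, was the only one of the 5 lower in the parents. Its arrays were at 5.83, 5.79 and 5.55 in PG-F9 and at 6.90, 6.16 and 6.32 in 12P, and only 1 of the 6 exceeded the background. The 2x hybrids had values of 7.29 to 8.46 with a median of 7.80. The 4x arrays split by genotype, at 7.14, 6.08 and 6.99 in S29-4x, 5.90, 5.72 and 5.69 in S48-4x and 7.18, 7.14 and 7.03 in S60-4x. The difference between the parents and the mean of both hybrid groups was -1.11 (SE 0.23, limma adjusted p = 0.0105), and -0.74 without PG-F9 (limma adjusted p = 0.122).

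**Figure D5:**
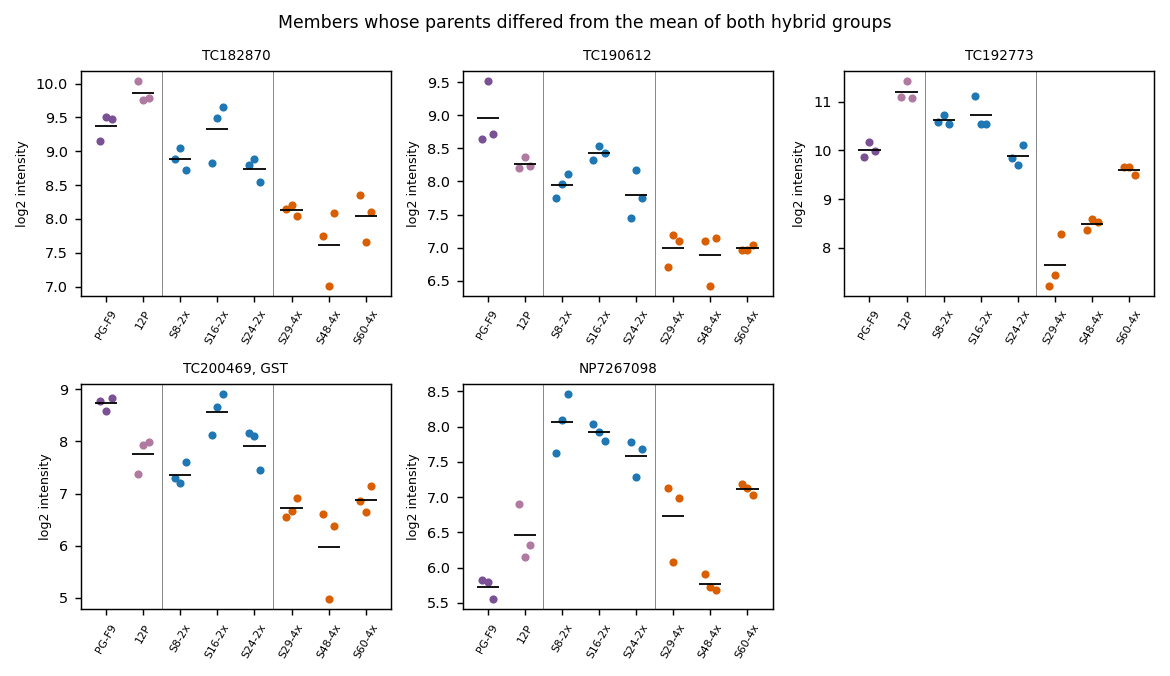
Log2 intensity (vertical axes, each with its own range) in the 8 genotypes for the 5 genes whose parents were called different from the mean of both hybrid groups, with 1 point per array and a line at the mean of 3 arrays. The parental points lie above the 4x points in TC182870, TC190612, TC192773 and TC200469, and at or below the 4x points of S29-4x and S60-4x in NP7267098 except for 1 array of S29-4x.

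Between the parents themselves, 17 of the 50 genes (34%) were called, with PG-F9 as the higher parent in 9 and 12P in 8, whereas 11.1% of all genes were called. The difference between the parents was not used to choose the genes except for its limit of 2. The absolute parental difference had a median of 0.85 for the 50 genes and 0.30 for all genes. The hybrids descend from these parents, so a rule on the hybrids may not be independent of the parental difference. That was not tested, and the values of the 50 and of all genes are not on an equal footing. TC175237, with a grape scaffold match, had the largest difference below the limit. Its arrays were at 10.73, 10.90 and 10.80 in PG-F9 and at 8.72, 9.16 and 8.81 in 12P, a difference of 1.92 (SE 0.16, limma adjusted p = 0.000308). PG-F9 was thus above the 2x mean of 10.12 and 12P close to the 4x mean of 8.80.

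TC199802, with a parental difference of 1.64, and TC180704, with 1.24, also had PG-F9 as the higher parent. The largest differences in the other direction were those of TC178474 (-1.55), NP7269402 (-1.52, SE 0.19, limma adjusted p = 0.00193) and TC194307 (-1.40, SE 0.25, limma adjusted p = 0.00758). Just outside the limit of 2 lay TC175199, annotated as a glutathione S-transferase, with a parental difference of 2.01, TC187299 with 2.05 and TC201627 with -2.08. On the threshold for the hybrid means, TC176867, TC192959 and TC192181 lay just inside, with differences of 1.0014, 1.0044 and 1.0179, and TC190127, TC201186 and TC187240 just outside, with 0.9912, 0.9804 and 0.9775.

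Among the hybrids of the same ploidy the 50 genes were not uniform. S48-4x had the lowest mean of the 4x hybrids in 32 genes (64%; 33.6% of all genes), S29-4x in 14 and S60-4x in 4, whereas S60-4x had the highest mean in 28. In the 2x hybrids, S16-2x had the highest mean in 30 genes (60%; 33.4% of all genes) and S24-2x the lowest in 34 (68%; 36.4% of all genes). The median deviation from the mean of their level was 0.20 in S16-2x, -0.04 in S8-2x and -0.21 in S24-2x, and 0.14 in S60-4x, 0.03 in S29-4x and -0.12 in S48-4x. The single array with the lowest value of the 4x hybrids was S48-4x replicate 2 in 23 genes (18.4% of all genes), and that of the 2x hybrids was S24-2x replicate 3 in 20 (15% of all genes). Such ranks come from the arrays that chose the genes. The shares of the 50 are therefore not on an equal footing with those of all genes.

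After subtraction of the level means, the median correlation over the 1225 pairs of the 50 genes was 0.31 over the 2x arrays, 0.18 over the 4x arrays and 0.09 over the parental arrays, which come from 3, 3 and 2 genotypes. No such value was computed for other genes, so whether these correlations are particular to the 50 was not tested. Called differences between hybrids of the same ploidy concerned 0 to 4 of the 50 genes per pair, above the share of all genes in 3 of the 6 pairs and below it in the other 3. These pairs use arrays that chose the genes, and the absence of overlap between the levels limits the spread within each. The shares of the 50 and of all genes, here and in the pairs below, are therefore not on an equal footing. Between S8-2x and S16-2x 1 of the 50 genes was called (2.51% of all genes), TC200469, with a difference of -1.21 (SE 0.22, limma adjusted p = 0.0321). Between S8-2x and S24-2x limma called 0 of the 50 (3.42% of all genes), with 13 (26%) at an unadjusted p under 0.05, beside 25.3% of all genes. Between S16-2x and S24-2x TC192181 was called, with 1.12 (SE 0.17, limma adjusted p = 0.0451), where 0.864% of all genes were called.

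In the 4x hybrids, 1 gene was called between S29-4x and S48-4x (3.16% of all genes), TC194307, at -1.17 (SE 0.23, limma adjusted p = 0.0366). Between S29-4x and S60-4x TC192773 and TC194307 were called (1.54% of all genes), both lower in S29-4x. The arrays of TC192773 were at 7.22, 7.44 and 8.28 in S29-4x, 8.37, 8.59 and 8.53 in S48-4x and 9.65, 9.66 and 9.50 in S60-4x, so that the genotypes were ordered without overlap of neighbours. Its difference between S29-4x and S60-4x was -1.96 (SE 0.26, limma adjusted p = 0.0154) and that between S48-4x and S60-4x was -1.11 (SE 0.12, limma adjusted p = 0.00349).

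Between S48-4x and S60-4x, 4 genes were called (8%; 3.24% of all genes), all lower in S48-4x: TC192773, NP7267098 and both pentatricopeptide repeat genes. NP7269402 had -1.40 (SE 0.15, limma adjusted p = 0.00378) and NP7269433 had -1.13 (SE 0.25, limma adjusted p = 0.0487). For NP7269402 the arrays of S48-4x, at 8.56, 8.26 and 8.78, lay below those of S29-4x, at 9.48, 9.65 and 9.22, and those of S60-4x, at 9.91, 9.90 and 10.004. Its 2x arrays, in contrast, lay between 10.61 and 10.99 in all 3 genotypes.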

How the data were processed

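Leaf RNA of 8 genotypes was hybridized to 24 NimbleGen arrays. The authors deposited linear intensity values, quantile normalized and summarized to 1 value per gene with RMA in Nimblescan 2.5. The intensities of 41527 genes were taken to log2, and 11 negative controls were left out of tests. Group comparisons used lmFit and eBayes of limma 3.58.1 (R 4.3.3), with arrays as observations and only the arrays compared in each fit. Adjusted p-values are by Benjamini-Hochberg over all genes. Called genes had an adjusted p below 0.05 and a log2 difference above 1 in either direction. Replicates were bulks of cuttings of 1 plant, and p-values measure the spread between these arrays. For arrays, precision is limited by their number.

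The genes, the classes and the tests were chosen with earlier results of these data known. Named genes were the 10 largest 2x minus 4x differences, up to 20 with an annotated function, those called for the parents against both hybrid groups, those nearest the thresholds, and the largest called difference per pair of hybrids; TC181436, TC178216, TC174243, TC199741 and NP7267894 were named for shared matches or clones after their values were seen. The fits were tested on simulated data. Alternatives were a second quantile normalization, median centring, a floor at the 5th percentile, leaving out the genes of lowest mean, eBayes with trend, no log2 threshold, a fit of all 24 arrays, the replicate block, the genotype as a block or mean, and leaving out arrays or genotypes.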

Additional observations from a re-analysis of the deposited data

Results flagged for a closer look

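In the 36 of the 50 genes that are named, the lowest and highest array of the parents, the 2x and the 4x hybrids were compared with the others of their group by Dixon's criterion, which chance meets in about 1 of 20 groups. Of 108 groups 2 met it, both through S48-4x replicate 2. TC200469, the glutathione S-transferase, had a log2 intensity of 4.97 on that array and of 6.37 to 7.15 on the other 4x arrays. TC187368, the GHMYB9-like gene, had 6.12 on it and 7.15 to 8.05 on the others. Without this array 43 genes met the rule, 40 of them among the 50.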

How the results depend on the processing

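The number of genes that met the rule was 50 with median centring and with a floor, and 49 after a second quantile normalization. It was 7 with group means over 1.5 apart, 190 with 0.5, 32 with parental means at most 1 apart and 202 with limma calls in place of no overlap. Without S8-2x it was 108, without S24-2x 150, without S29-4x 99 and without S60-4x 115, with 46 to 48 of the 50 kept. Without S16-2x it was 62, with only 32 of the 50 kept, and without S48-4x 65, with 34 kept. Without single arrays it was 43 to 76, the highest without S24-2x replicate 3.

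The counts of called genes among the 50 were small, and single calls changed them. For the parents against both hybrid groups (5) the count was 0 with the genotype as a random block or with genotype means, 3 without S8-2x, S24-2x, S29-4x or S48-4x, 9 without 12P, and 2 to 5 without single arrays, the 2 without PG-F9 replicate 2 or 3. For the parents against the 2x hybrids (3) it was 0 with the genotype as a random block or with genotype means, 5 without the log2 threshold, 1 without the genes of lowest mean, 8 without PG-F9, 9 without 12P, 1 without S16-2x, and 1 to 3 without single arrays, the 1 without S16-2x replicate 2. For the parents against the 4x hybrids (14) it was 6 with the genotype as a random block, 0 with genotype means, 34 without the log2 threshold, 24 without 12P, 9 without S48-4x, and 10 to 16 without single arrays. PG-F9 against 12P gave 27 without the log2 threshold and 15 to 19 without single arrays.

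Between hybrids of the same ploidy, omitting the log2 threshold gave 2 (S8-2x against S16-2x), 1 (S8-2x against S24-2x), 7 (S29-4x against S48-4x) and 8 (S48-4x against S60-4x). The trend and robust options gave 2, 1 and 2 in the 3 pairs of 2x hybrids, and the fit of all 24 arrays 1 (S8-2x against S24-2x) and 2 (S16-2x against S24-2x). The floor gave 0 for S8-2x against S16-2x, S16-2x against S24-2x and S29-4x against S48-4x, the second quantile normalization 0 for S16-2x against S24-2x, and leaving out the genes of lowest mean 2 there. Without single arrays the counts were 0 to 2, 0 to 1 and 0 to 1 in the 2x pairs, and 0 to 2 (S29-4x against S48-4x), 0 to 3 (S29-4x against S60-4x) and 3 to 5 (S48-4x against S60-4x).

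The replicate numbers did not pair the arrays, with a mean residual correlation of -0.00657 over 84 pairs of the same number and 0.003 over 168 others. With the replicate block the count was 3 for the parents against both hybrid groups, 2 for S8-2x against S16-2x, 0 for S16-2x against S24-2x, 0 for S29-4x against S48-4x and 1 for S29-4x against S60-4x. Among 527 refits of single called genes 0 reversed, and 104 no longer passed the thresholds. The causes were not tested, beyond fewer arrays or genotypes in the fits that leave some out. Differences of genes near the negative controls are limited by background.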
